A study of Mus musculus with 35 samples.

Results

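The 10 genes described here belong to the machinery that displays peptides to T cells. H2-K1, H2-D1, B2m and Tap1 serve MHC class I, and H2-Aa, H2-Ab1, H2-Eb1, H2-DMa, Cd74 and Ciita serve MHC class II. They were chosen by name from the 55401 gene identifiers of the mRNA count table, and all 10 were among the 17612 genes abundant enough to test. RNA was sequenced from CD45+ve microglia of wild-type C57BL/6 mice, isolated from whole brain on dishes coated against CD45, a surface protein of leukocytes. There were 5 females and 6 males at postnatal day 6 (P6), and 6 females and 6 males at each of P15 and 8 weeks, and each mouse gave 1 library. The labels give no treatment, and age and sex are the differences between groups. P6 female 6 was left out of the comparisons, as the sequenced mouse missing from those the study plotted after it had removed an outlier, so that 34 mice remained, 10 at P6 and 12 at each later age. On GRCm38, 7 members lie in the MHC on chromosome 17, between bases 33996017 and 35267499, whereas B2m (chromosome 2), Ciita (chromosome 16) and Cd74 lie elsewhere.

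Class I molecules pair a polymorphic heavy chain with beta-2-microglobulin and carry peptides that the proteasome cuts in the cytosol and the TAP transporter moves into the endoplasmic reticulum. They are displayed on nearly every nucleated cell and read by CD8+ T cells. Class II molecules pair an alpha with a beta chain, are escorted to endosomes by the invariant chain and exchange its remnant for a peptide with the help of H2-DM, for CD4+ T cells. Resting microglia are known for low class II, whereas macrophages at the borders of the brain, dendritic cells and B cells carry more.

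Libraries held between 23316107 and 38965078 counts (median 32742525, 35 mice). The summed level of 7 microglia markers (among them Tmem119, P2ry12 and Sall1) was 5856 to 10582 CPM (read counts relative to library size, with libraries scaled by TMM) at P6, 12669 to 24749 at P15 and 16582 to 23261 at 8 weeks, so markers of the labelled cells were detected in every library. In P6 female 6 this sum was 2633 CPM and that of 6 neuron markers 1533 CPM, against 276 to 926 in the other P6 mice. The class I members summed to 553 CPM and the class II members to 61.1 CPM in that mouse, below the lowest of the other P6 mice (1151 and 117 CPM). In bulk RNA a smaller share of cells that make a transcript and less of it per cell cannot be told apart, which applies to every value that follows.

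The classical class II chains rose in both intervals. H2-Aa, the alpha chain of the A molecule, ranged from 6.23 to 12.2 CPM at P6 (median 8.10), from 18.0 to 63.3 CPM at P15 (median 30.4) and from 58.3 to 161 CPM at 8 weeks (median 82.2). Every P15 mouse was above every P6 mouse, and of the P15 mice 1, male 6, reached into the range at 8 weeks. H2-Aa rose by a log2 fold change of 1.99 ± 0.19 (SE) from P6 to P15 (edgeR quasi-likelihood test, FDR = 2.3e-10) and by 1.52 ± 0.17 from P15 to 8 weeks (FDR = 2.3e-08). Its partner H2-Ab1, the beta chain, ranged from 9.996 to 19.2 CPM at P6 (median 12.9), from 21.8 to 73.5 CPM at P15 (median 39.3) and from 64.2 to 165 CPM at 8 weeks (median 89.6). P6 and P15 mice did not overlap for H2-Ab1 either, while P15 and 8 weeks did. H2-Ab1 rose by 1.53 ± 0.18 (FDR = 1.1e-08) and then by 1.35 ± 0.16 (FDR = 8.3e-08) on the log2 scale. H2-Eb1, the beta chain of the E molecule, whose alpha chain C57BL/6 mice are known to lack in functional form, ranged from 3.35 to 7.82 CPM at P6 (median 4.97), from 11.3 to 43.6 CPM at P15 (median 19.2) and from 34.4 to 96.2 CPM at 8 weeks (median 57.8). The pattern of overlap was that of the A chains. The log2 fold changes of H2-Eb1 were 2.03 ± 0.21 (FDR = 5.8e-10) and 1.59 ± 0.18 (FDR = 3.3e-08). From P6 to 8 weeks the 3 chains rose by 3.51 ± 0.21, 2.88 ± 0.19 and 3.62 ± 0.22 on the log2 scale (largest FDR = 1.3e-14), with no overlap between the mice of these ages.

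**Figure D1:**
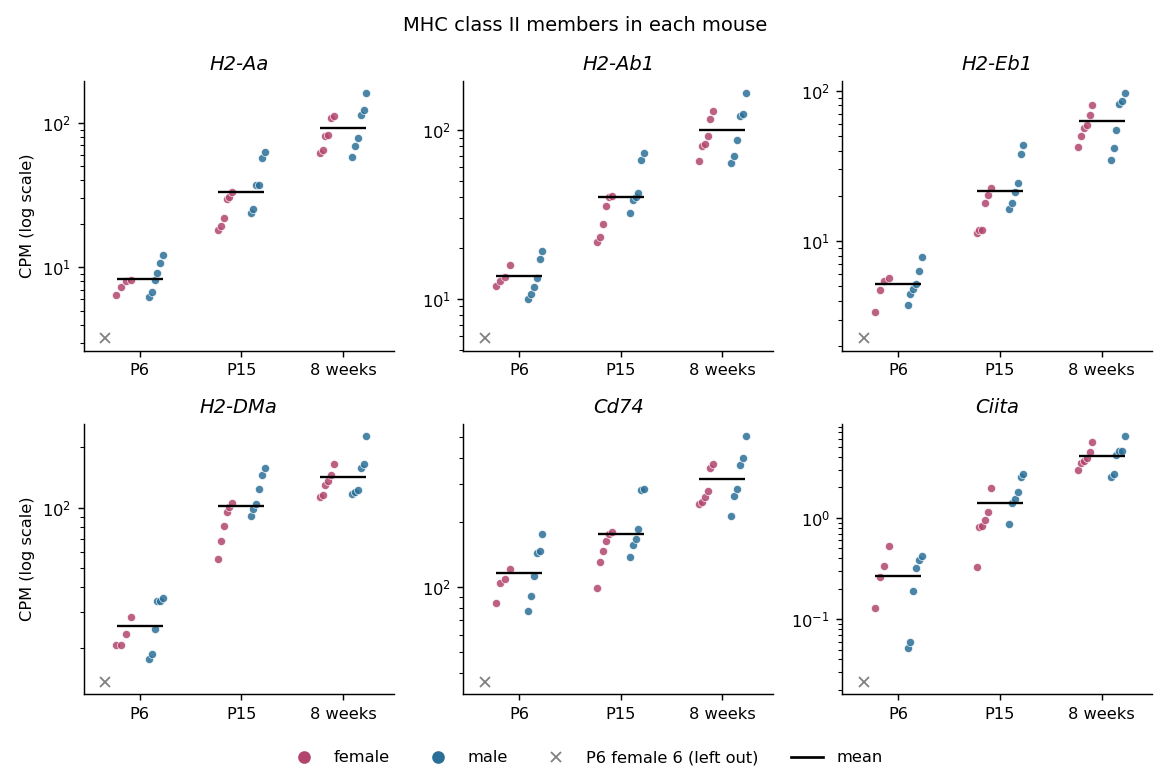
CPM of each class II member (logarithmic axis) in each mouse at P6, P15 and 8 weeks, with females and males as separate points, the mean of an age as a bar and P6 female 6, which was left out, as a cross. All 6 genes had every 8-week mouse above every P6 mouse, and P15 males 5 and 6 were the highest P15 mice.

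P15 males 5 and 6 had the highest values of their age for all 6 class II members. Their summed class II levels were 591 and 626 CPM against a P15 median of 356 CPM. Their microglia marker sums, 23405 and 24749 CPM, were also the 2 highest at P15 (median 18241). P15 male 5 also had the highest border-associated macrophage (1254 CPM, median 1002) and dendritic cell (44.4 CPM) sums. P15 male 6 had the highest monocyte (22.9 CPM, median 14.5), B cell (580 CPM, median 394) and T and NK cell (12.6 CPM, median 7.88) sums. Their immature neuron and progenitor marker sums, 128 and 109 CPM, were the 2 lowest (median 290). The part of these differences in the class II values was not tested. Without both mice, an alternative chosen after seeing the data, H2-Aa, H2-Ab1, H2-Eb1, H2-DMa and Ciita were still past the 2-fold threshold from P6 to P15. At 8 weeks, male 4 was the highest mouse for all 6 members (summed level 1156 CPM, median 648).

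The genes that serve class II loading and transcription moved on different schedules. H2-DMa, a chain of the peptide exchange factor H2-DM, ranged from 17.5 to 35.6 CPM at P6 (median 24.04), from 55.1 to 157 CPM at P15 (median 99.9) and from 113 to 227 CPM at 8 weeks (median 133). Most of its rise fell in the first interval, where P6 and P15 mice did not overlap. Its log2 fold change was 1.996 ± 0.15 from P6 to P15 (FDR = 6.9e-13) and 0.50 ± 0.13 from P15 to 8 weeks (FDR = 2.6e-03). Cd74, the invariant chain, ranged from 77.4 to 176 CPM at P6 (median 111), from 98.8 to 286 CPM at P15 (median 166) and from 213 to 501 CPM at 8 weeks (median 282). Neighbouring ages overlapped for Cd74, and P6 and 8 weeks did not. It rose by 0.61 ± 0.16 (FDR = 1.4e-03) and by 0.86 ± 0.15 (FDR = 2.5e-05) on the log2 scale. Ciita, the co-activator that drives class II transcription, was at the edge of detection at P6, with 2 to 19 counts per mouse (0.0520 to 0.528 CPM, median 0.291). It reached 10 to 87 counts at P15 (0.330 to 2.71 CPM, median 1.27) and 69 to 187 counts at 8 weeks (2.55 to 6.38 CPM, median 4.03). P15 female 4, at 0.330 CPM, lay within the P6 range, and the other 11 P15 mice were above it. The log2 fold changes of Ciita were 2.29 ± 0.32 (FDR = 2.3e-07) and 1.59 ± 0.26 (FDR = 1.1e-05), and 2 of the P6 mice had 2 counts each. From P6 to 8 weeks H2-DMa, Cd74 and Ciita rose by 2.501 ± 0.16, 1.47 ± 0.16 and 3.88 ± 0.33 on the log2 scale (largest FDR = 1.8e-09). Exons of H2-DMa and Ciita overlap those of Brd2 and Dexi on the opposite strand.

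Promoter sequence was at hand for 7 members, as windows from 250 bases before to 50 bases after the RefSeq start on GRCm38.p6. H2-Ab1, Cd74 and Ciita had no window. The windows were searched on both strands for the class II X box, the Y box (CTGATTGG), the interferon-stimulated response element core (GAAANNGAA), the gamma-activated site (TTCNNNGAA) and the NF-kappa-B motif. The 250 upstream bases of 4 members are shown because they cover each kind of motif found in the members, with matches in capitals.
H2-Eb1, chr17:34305617-34305866, plus strand: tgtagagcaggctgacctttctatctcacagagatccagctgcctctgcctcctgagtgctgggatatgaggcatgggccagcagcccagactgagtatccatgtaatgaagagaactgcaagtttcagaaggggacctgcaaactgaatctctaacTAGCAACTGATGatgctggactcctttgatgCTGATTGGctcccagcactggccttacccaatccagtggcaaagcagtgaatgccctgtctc
H2-Aa, chr17:34287824-34288073, minus strand: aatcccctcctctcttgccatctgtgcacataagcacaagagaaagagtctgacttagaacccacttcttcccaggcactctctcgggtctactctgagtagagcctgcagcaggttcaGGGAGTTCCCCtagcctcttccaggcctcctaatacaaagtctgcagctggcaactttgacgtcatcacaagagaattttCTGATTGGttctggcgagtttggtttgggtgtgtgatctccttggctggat
H2-D1, chr17:35262844-35263093, plus strand: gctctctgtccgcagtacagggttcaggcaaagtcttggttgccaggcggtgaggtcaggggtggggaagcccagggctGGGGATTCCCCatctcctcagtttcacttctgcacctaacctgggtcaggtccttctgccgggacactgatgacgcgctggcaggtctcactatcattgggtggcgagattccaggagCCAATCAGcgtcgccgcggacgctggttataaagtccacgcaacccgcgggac
B2m, chr2:122147437-122147686, plus strand: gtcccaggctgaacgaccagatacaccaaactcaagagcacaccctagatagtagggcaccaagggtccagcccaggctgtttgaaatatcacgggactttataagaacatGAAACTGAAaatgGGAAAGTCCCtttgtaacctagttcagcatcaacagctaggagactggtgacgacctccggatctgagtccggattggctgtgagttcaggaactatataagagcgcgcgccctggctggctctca
H2-Eb1 held the X box, which begins 93 bases before the start, and the Y box, 62 bases before it. The X box was found in 0.295% of all 32851 windows and the pair in 2 of them. The Y box, present in 4.1% of all windows, was also found in H2-Aa and, as its reverse complement CCAATCAG, in H2-D1, H2-K1 and Tap1. The NF-kappa-B motif, in 4.51% of all windows, was found in H2-K1, H2-D1 and H2-Aa, in each as matches that overlap one another, and in B2m, and the interferon-stimulated response element core, in 8.56%, in B2m. No gamma-activated site (8.3% of all windows) was found in these members, and neither of the windows of H2-DMa held any of the motifs. These are exact matches of letters in one window and not measurements of binding. Variant forms of an element, which differ from the letters searched, were not counted.

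The class I heavy chains and B2m rose in both intervals, and each step was smaller than that of H2-Aa, H2-Ab1 or H2-Eb1. H2-K1, a classical heavy chain, ranged from 247 to 482 CPM at P6 (median 307), from 332 to 786 CPM at P15 (median 427) and from 573 to 847 CPM at 8 weeks (median 720). Its P6 and 8-week mice did not overlap. H2-K1 rose by 0.59 ± 0.13 on the log2 scale from P6 to P15 (FDR = 3.2e-04) and by 0.59 ± 0.12 from P15 to 8 weeks (FDR = 2.7e-04). H2-D1, the other classical heavy chain of this strain, ranged from 300.3 to 501 CPM at P6 (median 374), from 291 to 716 CPM at P15 (median 445) and from 526 to 911 CPM at 8 weeks (median 634). The 8-week mice lay above all P6 mice, and P15 overlapped both. Its log2 fold changes were 0.30 ± 0.12 (FDR = 0.027) and 0.48 ± 0.11 (FDR = 6.2e-04). B2m, the light chain shared by class I molecules, ranged from 507 to 975 CPM at P6 (median 626), from 363 to 1193 CPM at P15 (median 851) and from 851 to 1301 CPM at 8 weeks (median 1143). The 3 ages overlapped, and the lowest value of all was that of P15 male 1. B2m rose by 0.37 ± 0.14 (FDR = 0.020) and 0.37 ± 0.13 (FDR = 0.017) on the log2 scale.

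The first of these steps was close to the threshold for H2-D1 and B2m. For H2-D1 it was lost when any of P15 female 1, P15 male 5, P15 male 6, P6 female 2, P6 male 3 or P6 male 4 was left out (log2 fold changes 0.27, 0.26, 0.23, 0.26, 0.24 and 0.26, FDR = 0.052 to 0.069). For B2m it was lost without P6 female 2 (0.32, FDR = 0.059). Scaling by library size alone also ended both calls, with log2 fold changes of 0.16 for H2-D1 (FDR = 0.093) and 0.24 for B2m (FDR = 0.079), and moved the median of all genes from -0.01 to -0.14 in that interval. From P6 to 8 weeks H2-K1, H2-D1 and B2m rose by 1.18 ± 0.14 (FDR = 3.4e-09), 0.78 ± 0.12 (FDR = 5.8e-07) and 0.74 ± 0.14 (FDR = 1.5e-05).

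Tap1, a subunit of the peptide transporter, rose in the first interval and did not pass the test in the second. It ranged from 35.5 to 63.4 CPM at P6 (median 47.0), from 40.7 to 99.8 CPM at P15 (median 72.3) and from 56.4 to 111 CPM at 8 weeks (median 68.6), with overlap between all ages. Its log2 fold change was 0.59 ± 0.13 from P6 to P15 (FDR = 2.5e-04), -0.01 ± 0.12 from P15 to 8 weeks (FDR = 0.93) and 0.58 ± 0.13 from P6 to 8 weeks (FDR = 2.2e-04). Exons of Tap1 overlap those of Psmb9 on the opposite strand, and counting was strand-specific.

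**Figure D2:**
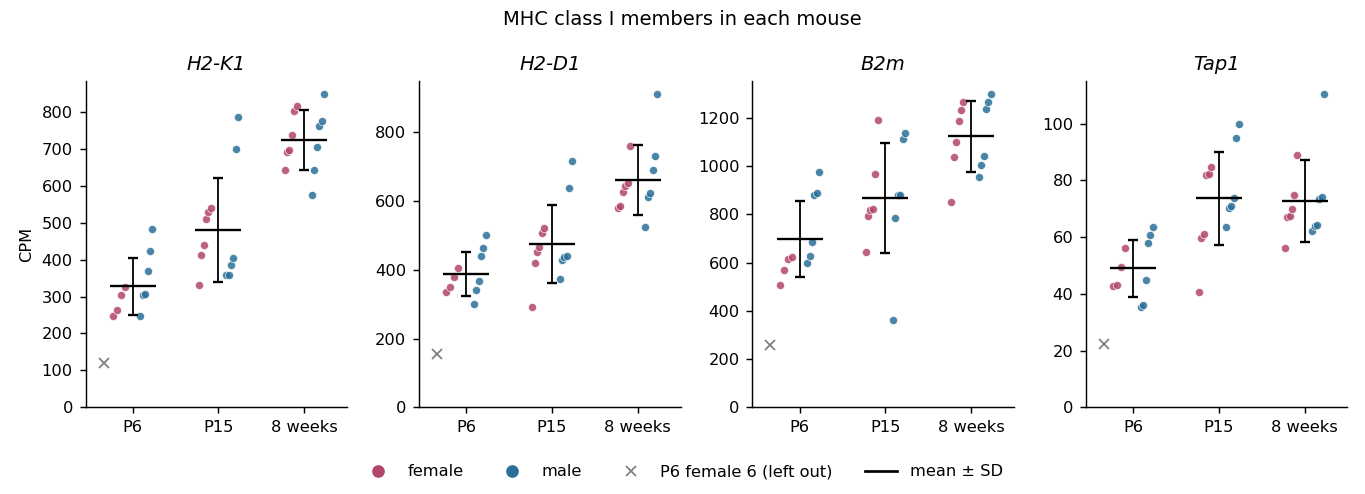
CPM of each class I member (linear axes from 0) in each mouse at P6, P15 and 8 weeks, with the mean ± SD of an age in black and P6 female 6, which was left out, as a cross. Medians rose with age for H2-K1, H2-D1 and B2m, and for Tap1 from 47.0 to 72.3 CPM and then to 68.6 CPM.

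Counted over the members, 10 of 10 rose from P6 to P15 at FDR below 0.05, where 30.4% of all genes tested did. The 6 class II members had a median log2 fold change of 1.99 and the 4 class I members one of 0.48, against -0.01 over all genes tested. H2-Aa, H2-Ab1, H2-Eb1, H2-DMa and Ciita were past a 2-fold threshold (glmTreat, FDR below 0.05), as were 4.87% of all genes, and 4 members had every P15 mouse above every P6 mouse (5.25% of all genes). With limma-voom H2-Ab1 was not past 2-fold in this interval. From P15 to 8 weeks 9 members rose and Tap1 did not pass the test, where 24% of all genes rose. Past 2-fold were H2-Aa and H2-Eb1 (1.2% of all genes), no member had ages that did not overlap (1.65% of all genes), and the medians were 1.44 for class II, 0.43 for class I and 0.02 for all genes. With limma-voom or DESeq2 H2-Aa lost this call and H2-Eb1 alone was past 2-fold. The count became 4, with H2-Ab1 and Ciita added, when 8-week male 1 or P15 male 6 was left out. From P6 to 8 weeks 10 of 10 rose (37.8% of all genes), all 6 class II members and no class I member were past 2-fold (11.5% of all genes), and 8 members did not overlap between these ages (14.8% of all genes). The medians were then 3.19 for class II, 0.76 for class I and 0.04 for all genes. The fold of H2-K1 was 2.27, and its test against 2-fold gave FDR = 0.104. Without P6 male 1 H2-K1 passed as well, for a count of 7 members. It also passed with all 35 mice, with only the compared groups fitted, and without P15 males 5 and 6.

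**Figure D3:**
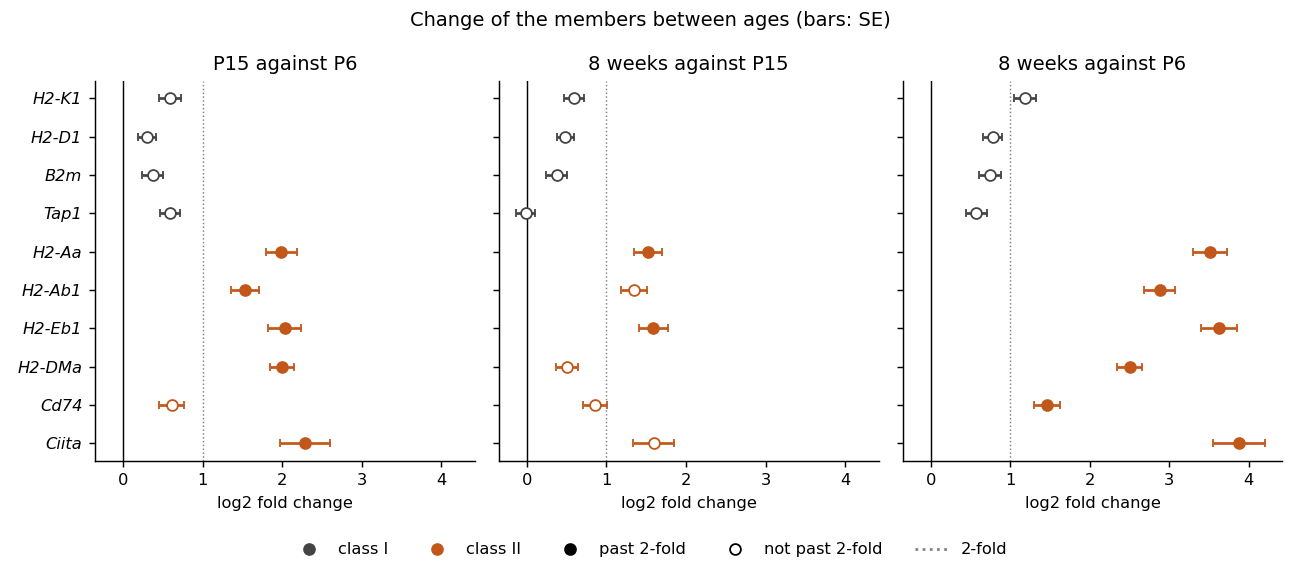
Log2 fold change ± SE of each member in the 3 age comparisons, with class I in grey and class II in orange and with filled points for genes past 2-fold (dotted line). Class II genes lie to the right of every class I gene except H2-DMa from P15 to 8 weeks (0.50, where H2-K1 is at 0.59), and Cd74 lies closest to class I from P6 to P15 (0.61).

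Levels of different genes were compared per kilobase of exon (RPKM), with the exons of all annotated transcripts of a gene merged. The order of genes, their percentiles and the size of the RPKM ratios that follow depend on this merged length. At 8 weeks H2-Aa (3798 bases) averaged 92.9 CPM and H2-Eb1 (1944 bases) 62.5 CPM, the reverse of their order in RPKM. B2m was the highest member at every age, at 811 ± 184 RPKM (SD, n = 10) at P6, 1008 ± 265 at P15 (n = 12) and 1306 ± 169 at 8 weeks (n = 12). H2-D1 and H2-K1 followed, at 151 ± 24.6 and 112 ± 26.1 RPKM at P6 and at 257 ± 39.5 and 246 ± 27.5 RPKM at 8 weeks, and their ranges overlapped at each age. Cd74 came next, at 69.5 ± 18.6, 105 ± 33.1 and 188 ± 49.7 RPKM, overlapping H2-K1 but apart from all members below it. The remaining order changed with age. At P6 Tap1 ranked 5, at 8.95 ± 1.84 RPKM, above H2-DMa, H2-Ab1, H2-Eb1 and H2-Aa (7.46, 5.30, 2.64 and 2.18 RPKM), each overlapping its neighbour. At 8 weeks Tap1, at 13.3 ± 2.64 RPKM, ranked 9, below H2-DMa, H2-Ab1, H2-Eb1 and H2-Aa (41.5, 38.97, 32.1 and 24.5 RPKM), again each overlapping its neighbour. Ciita was the lowest at every age, at 0.0281 ± 0.0167, 0.148 ± 0.0769 and 0.430 ± 0.120 RPKM. Among all genes tested, the mean RPKM of H2-Aa stood at percentile 41.7 among P6 mice, 71.4 by P15 and 89.2 by 8 weeks, and that of B2m at 99.8, 99.8 and 99.9. Of the 100-base windows of H2-K1 0.957%, and of those of H2-D1 3.59%, occur unchanged in transcripts of other genes, and none of those of the other members do. How reads with mismatches were assigned among class I heavy chains was not tested.

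Ratios of genes within a mouse do not depend on how libraries are scaled. For 12 ratios chosen after seeing the data, each tested over 3 age pairs with 100000 permutations of the mice (36 two-sided tests, Benjamini-Hochberg adjusted), the invariant chain lost ground to the class II chains. The RPKM ratio of Cd74 to H2-Ab1 ranged from 9.57 to 18.7 at P6 (median 13.5), from 5.94 to 8.62 at P15 (median 6.68) and from 4.39 to 5.86 at 8 weeks (median 4.77). The 3 ages did not overlap, and each step gave p = 2e-05, the smallest these permutations can give (adjusted p = 2.88e-05). H2-Eb1 gained on H2-Ab1, from a median ratio of 0.503 at P6 to 0.692 at P15 and 0.821 at 8 weeks, and H2-Aa gained likewise, from 0.425 to 0.559 and 0.621, with P6 and 8 weeks apart in both ratios (permutation p = 2e-05, adjusted p = 2.88e-05). H2-DMa against H2-Ab1 was highest at P15, with medians of 1.31, 1.95 and 1.05 and overlap between neighbouring ages (permutation p = 5.16e-03, adjusted p = 5.99e-03, and p = 2e-05, adjusted p = 2.88e-05).

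Among class I genes, Tap1 fell against Tap2, the other subunit of the transporter. Their RPKM ratio ranged from 0.701 to 0.872 at P6 (median 0.739), from 0.478 to 0.668 at P15 (median 0.606) and from 0.352 to 0.459 at 8 weeks (median 0.399), without overlap (permutation p = 2e-05 for each step, adjusted p = 2.88e-05). H2-K1 against H2-D1 went from a median of 0.737 to 0.911 and 0.945, and the second step (log2 change 0.13, permutation p = 0.0296, adjusted p = 0.0323) was lost without any of 8-week females 2, 4 and 6, 8-week male 5, P15 female 5 or P15 males 1, 2 and 3 (0.11 to 0.13). B2m against H2-K1 had medians of 7.06, 6.69 and 5.43. Neither step passed (log2 change -0.25, permutation p = 0.0714, adjusted p = 0.0734, and -0.22, p = 0.12, adjusted p = 0.12), while P6 to 8 weeks did (-0.46, p = 2e-05, adjusted p = 2.88e-05). The first step passed without P15 male 2 (-0.29) or P6 female 1 (-0.28), and the second without P15 male 1 (-0.30). The ratios of the 3 inducible catalytic subunits of the immunoproteasome to the constitutive subunits that they replace increased. From P6 to P15 Psmb8 and Psmb10 did not pass the test on their own (log2 fold changes 0.16, FDR = 0.31, and 0.25, FDR = 0.085), while Psmb5 and Psmb7 fell by 0.61 and 0.68. The median neuron marker sum went from 693 to 315 CPM (2 of 6 genes higher, 2 lower). That of immature neurons and progenitors went from 1532 to 290 CPM (6 of 6 lower). That of oligodendrocytes and astrocytes went from 370 to 1604 CPM (4 of 6 higher, 1 lower). Over all genes 30.4% were higher and 31.4% lower, and the part of these cells was not tested. Psmb9 over Psmb6 went from a median of 0.0540 at P6 to 0.154 at P15 and 0.289 at 8 weeks, Psmb10 over Psmb7 from 0.482 to 0.921 and 1.52, both without overlap, and Psmb8 over Psmb5 from 0.189 to 0.339 and 0.535 (largest permutation p = 1.6e-04, adjusted p = 2.06e-04, for Psmb8 over Psmb5 from P6 to P15).

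The members were also set against the microglia markers. As a percentage of the summed microglia marker CPM, the class II sum had a median of 2.25 among P6 mice, which was 1.95 by P15 and 3.46 by 8 weeks. Here the step from P6 to P15 did not pass the test (log2 change -0.20, permutation p = 0.0663, adjusted p = 0.0702), and it passed as a decrease without P15 male 1, P15 male 5, P15 male 6 or P6 male 3 (log2 changes -0.25, -0.23, -0.23 and -0.23). From P15 to 8 weeks the ratio rose by 0.80 on the log2 scale (permutation p = 2e-05, adjusted p = 2.88e-05). At P6 most of the class II sum (median 158 CPM) was Cd74 (mean 117 CPM). From P6 to P15 Cd74 rose by 0.61 on the log2 scale and the other class II members by 1.53 to 2.29. The median of the microglia marker genes was 1.21. Ratios of single members to the markers were not tested. The class I sum stood at a median of 19.97% of the markers at P6, 10.3% at P15 and 12.6% at 8 weeks. It fell by 0.96 on the log2 scale to P15, without overlap (permutation p = 2e-05, adjusted p = 2.88e-05), and then rose by 0.31 (permutation p = 4e-05, adjusted p = 5.54e-05). The markers themselves changed with age, Tmem119 by a log2 fold change of 2.95 and Fcrls by 0.83 from P6 to P15, so these percentages are not levels per cell.

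**Figure D4:**
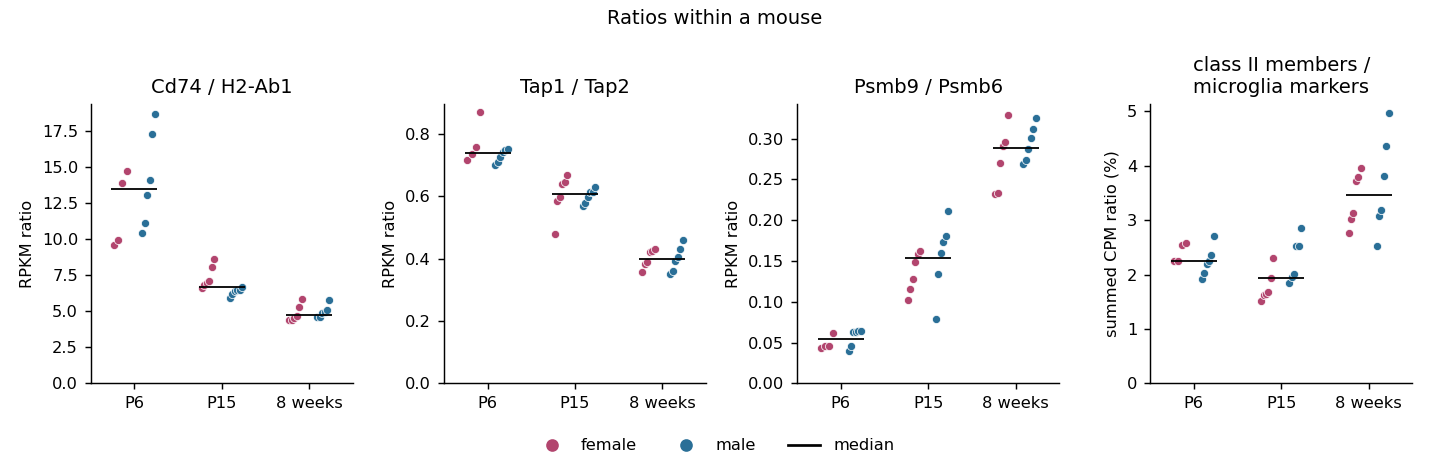
Ratios within each mouse at P6, P15 and 8 weeks (linear axes from 0, black bars are medians): Cd74 over H2-Ab1, Tap1 over Tap2 and Psmb9 over Psmb6 in RPKM, and the summed CPM of the class II members as a percentage of that of the microglia markers. The first 3 ratios do not overlap between ages, and the fourth has its lowest median, 1.95%, at P15. Cd74 is the largest part of the class II sum at each age.

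Of 87 further genes of the pathway, 82 were abundant enough to test. From P6 to P15, 45 rose and 11 fell (over all genes tested 30.4% rose and 31.4% fell), from P15 to 8 weeks 46 rose and 3 fell (23.9% of all genes fell), and from P6 to 8 weeks 61 rose and 9 fell (36.6% of all genes fell). Of the other class II genes, H2-DMb1, H2-DMb2, H2-Oa and H2-Ob, chains of the exchange factor H2-DM and of its inhibitor H2-O, rose past 2-fold from P6 to P15 (4 of 4 tested, against 4.87% of all genes, log2 fold changes 1.46, 1.84, 1.81 and 1.35). From P15 to 8 weeks H2-DMb1, H2-DMb2 and H2-Ob rose by 0.79, 0.40 and 1.23, none past 2-fold, and H2-Oa stood at 0.16 (FDR = 0.30). By 8 weeks H2-DMb1, H2-DMb2, H2-Oa and H2-Ob stood 2.25, 2.24, 1.97 and 2.58 above P6 on the log2 scale. H2-DMb1 and H2-DMb2 share 11.3% and 10.3% of their 100-base windows, so their counts are less certain. H2-Eb2 was too low to test, with a mean of 0.419 CPM at 8 weeks.

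Genes that process antigen for class II split in direction. Ctss, the protease that trims the invariant chain, rose by 1.27 to P15 and 2.01 to 8 weeks (FDR = 4.9e-14), and Marchf1, a ligase that removes class II from the surface, by 1.28 and 1.76 (FDR = 2.7e-12). Ctsl, another endosomal protease, fell by 0.73 and 0.89 (FDR = 9.8e-09), and Ifi30, the lysosomal thiol reductase, fell by 0.37 to P15 (FDR = 0.021) and was at -0.13 by 8 weeks (FDR = 0.41). Of the factors that assemble on the X and Y boxes, Rfx5 rose by 0.87 from P6 to 8 weeks (FDR = 1.0e-09) and Rfxank by 0.56 (FDR = 1.4e-08), Rfxap stood at -0.12 (FDR = 0.13), and Nfyb fell by 0.83 (FDR = 6.2e-07). Nlrc5, the class I counterpart of Ciita, stood at 0.28 from P6 to P15 (FDR = 0.14) and rose by 1.003 from P15 to 8 weeks (FDR = 4.4e-06), from a mean of 6.58 to 13.1 CPM.

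Of 11 other class I heavy chains tested, 5 rose from P6 to P15 (30.4% of all genes), 9 from P15 to 8 weeks (24% of all genes) and 10 from P6 to 8 weeks (37.8% of all genes), and none fell. H2-T23, the Qa-1 chain read by NK cell receptors, rose from a mean of 31.9 CPM at P6 to 70.7 at P15 and 145 at 8 weeks (log2 fold change 2.20, FDR = 5.1e-16). H2-Q6 and H2-Q7 rose mainly after P15, by 1.34 and 1.46, but 10.8% and 12% of their 100-base windows occur in other genes. Of the class I loading factors, all 7 rose from P15 to 8 weeks. Tap2, Tapbp and Tapbpl, the transporter subunit and the tapasin pair of editors, also rose from P6 to P15, by 0.90, 0.85 and 0.80. Psmb8, Psmb9 and Psmb10 rose by 0.54, 1.12 and 0.63 from P6 to 8 weeks, whereas Psmb5, Psmb6 and Psmb7 fell by 0.86, 1.299 and 0.997. Of the activator PA28, Psme2 fell by 0.37 (FDR = 1.3e-03) and Psme1 stood at -0.12 (FDR = 0.31). Constitutive proteasome subunits are used by every cell type, and the median sum of the neuron markers went from 693 CPM at P6 to 110 CPM at 8 weeks, that of 6 immature neuron and progenitor markers from 1532 to 93.8 CPM. The median sum of 6 oligodendrocyte and astrocyte markers went from 370 to 577 CPM. The part of these cells in the fall of the proteasome subunits was not tested.

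Of 16 interferons, interferon receptors and signalling genes, 14 rose from P6 to 8 weeks (37.8% of all genes), among them Ifngr1 (1.47), Irf1 (1.31) and Irf8 (1.23). Ifnb1 and Ifnar1 did not pass the test (-0.69 and 0.04). Ifng itself, the cytokine that induces Ciita, averaged 0.0229, 0.0996 and 0.785 CPM by age and had no count in 7 of 10 P6 mice. Of 16 interferon response genes 11 rose (37.8% of all genes), 1 fell (Ifi27l2a, by 0.54) and 4 did not pass. Among co-stimulatory genes Icosl rose by 1.66, Cd80 by 0.86, Cd86 by 0.72 and Cd274 by 0.90, while Cd40 stood at -0.46 (FDR = 0.058).

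**Figure D5:**
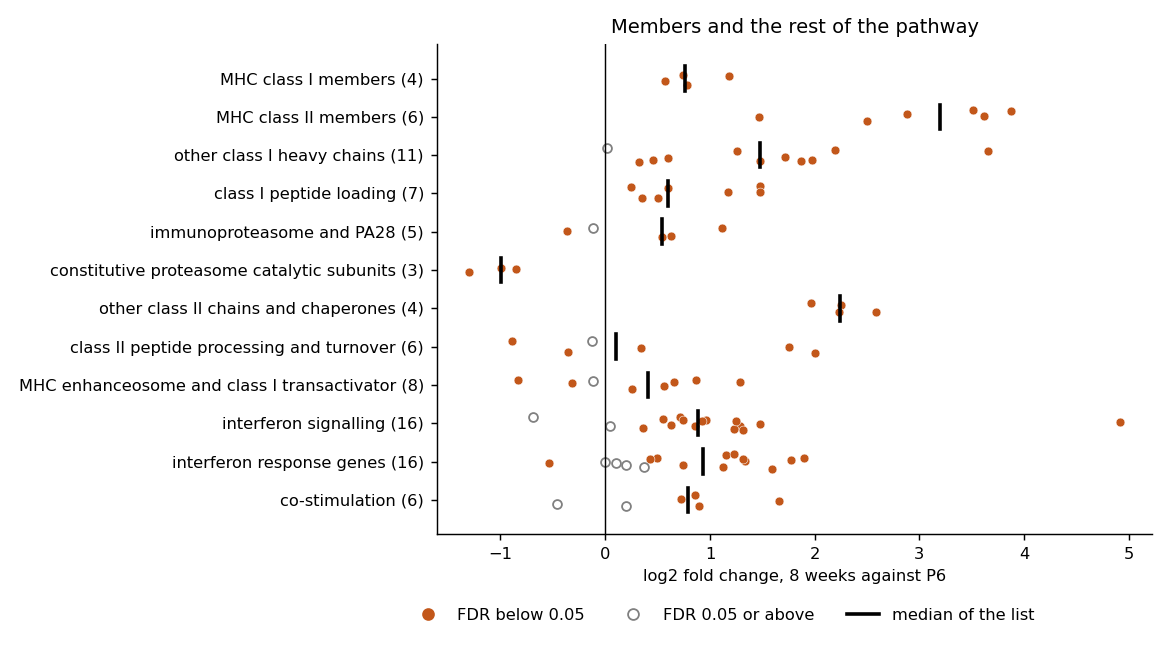
Log2 fold change from P6 to 8 weeks of each gene tested in the members and in 10 lists of the rest of the pathway (number tested in brackets), filled where FDR was below 0.05, with the median of each list as a bar. The class II members (median 3.19) and the remaining class II chains (median 2.24) have the highest medians, Ifng, which had 3 counts or fewer in every P6 mouse so that its fitted value is no measure of size, lies farthest to the right, and the constitutive proteasome subunits lie below 0 (median -0.997).

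Markers of other leukocytes were measured in the same libraries. Border-associated macrophage markers (8 genes) summed to 751 to 1632 CPM at P6, then to 423 to 1254 by P15 and to 428 to 779 by 8 weeks, and of the 8 genes 4 rose and 3 fell from P6 to P15 (30.4% and 31.4% of all genes, median log2 fold change 0.31) and 8 fell from P15 to 8 weeks (23.9% of all genes, median -0.69). Dendritic cell markers (7 genes) summed to 29.5 to 37.0, 28.7 to 44.4 and 33.5 to 48.1 CPM. Among them Cd209a rose from a mean of 0.534 to 2.90 and 7.87 CPM, Zbtb46 fell from 19.3 to 7.06 CPM, and Xcr1 and Clec9a stayed below 0.5 CPM on average. Monocyte markers (4 genes) summed to 6.98 to 16.5, 11.6 to 22.9 and 17.1 to 67.4 CPM, and T and NK cell markers (8 genes) to 2.33 to 5.74, 6.08 to 12.6 and 14.1 to 49.7 CPM. B cell markers (7 genes) summed to 340 to 552, 291 to 580 and 382 to 604 CPM, most of it Ighm, while Ms4a1 averaged 1.27 CPM at P6, 3.65 by P15 and 3.05 by 8 weeks. From P6 to 8 weeks 3 of 4 monocyte markers rose (median log2 fold change 2.88), as did 8 of 8 T and NK cell markers (2.41), 4 of 5 dendritic cell markers tested (0.87), 5 of 7 B cell markers (0.87) and 2 of 8 border-associated macrophage markers (-0.36), against 37.8% of all genes. Neutrophil markers (6 genes) summed to 15.7 to 69.7, 15.3 to 96.8 and 29.9 to 201 CPM. From P6 to 8 weeks 3 of 5 neutrophil markers tested rose (median 2.12, against 37.8% of all genes). No marker of these lists was at 0 in every mouse of an age. 8-week male 4, the highest mouse for class II, was also the highest of its age for the monocyte (67.4 CPM), T and NK (49.7 CPM), dendritic (48.1 CPM), B cell (604 CPM), neutrophil (201 CPM), microglia (23261 CPM) and endothelial (273 CPM) sums. It ranked 8 of 12 for the border-associated macrophage sum (503 CPM). The part of these cells in the class II values was not tested.

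From mouse to mouse within an age and sex, the class II chains varied together. After centring log2 CPM on the 6 groups, H2-Aa and H2-Ab1 had Pearson r = 0.96 (Spearman rho = 0.95), and H2-Eb1 had r = 0.93 with H2-Aa and 0.94 with H2-Ab1 over 34 mice. Cd74 had r = 0.89 with H2-Aa and 0.91 with H2-D1. H2-DMa was closest to Tap1 (r = 0.93) and stood at 0.59 with H2-Aa. Ciita had r between 0.02 and 0.30 with the other members, at counts as low as 2 per mouse. The mean of H2-K1, H2-D1 and B2m and the mean of H2-Aa, H2-Ab1, H2-Eb1 and Cd74 had r = 0.81 (rho = 0.81), or 0.78 without P15 males 1 and 6, the 2 mice farthest from the median. The points share their library and its depth. With the 6 immature neuron and progenitor markers the class I mean had r from -0.87 (Sox11) to -0.64 (Eomes), and the class II mean from -0.69 (Dcx) to -0.30 (Eomes), and their part in these correlations was not tested. They are descriptions without a test.

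The 6 genes, members apart, whose centred level was most like the class I mean were M6pr (r = 0.95), Il21r, Plcb2, Csf3r, Pik3ap1 and Stxbp2 (r = 0.93 for the last). For the class II mean they were Ripk3 (r = 0.85), Eno3, Dok2, Stk11ip, Arhgap22 and Hps1 (r = 0.82). Ranking by Spearman rho kept 1 of the 6 for class I and 2 of the 6 for class II, so the order among close genes is not settled by 34 mice. Ripk3, a kinase of necroptosis, averaged 21.5 CPM at P6, 11.4 at P15 and 8.86 at 8 weeks, an order opposite to that of the class II members.

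No member differed between males and females at any age at FDR below 0.05, in 30 comparisons. The test called 0.0511% of all genes among P6 mice, 0.0681% among P15 mice and 0.114% among 8-week mice, against 1250, 3200 and 518 genes at an unadjusted p under 0.05. At P15 the class II members were all higher on average in males, H2-Eb1 by a log2 difference of 0.75 ± 0.26 (edgeR, unadjusted p = 6.2e-03, FDR = 0.25) and Ciita by 0.83 ± 0.37 (unadjusted p = 0.032, FDR = 0.26), with P15 males 5 and 6 among those males. The mean of H2-Eb1 was 26.9 CPM in P15 males and 16.0 CPM in P15 females, and the ranges overlapped. At 8 weeks the largest difference among the class II members was that of H2-Aa, 0.24 on the log2 scale (FDR = 1). The change from P6 to 8 weeks did not differ between the sexes for any member (0% of all genes at FDR below 0.05, 898 genes at an unadjusted p under 0.05, smallest FDR among the members 0.86 for B2m).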

How the data were processed

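Per the labels and the methods of the study, the authors prepared strand-specific libraries, aligned reads to GRCm38 with STAR, counted them per gene with featureCounts in reverse-stranded mode and deposited raw counts for 35 mice. Gene names, exon lengths and coordinates came from a GENCODE annotation that may not be the release the authors used (55141 of 55401 identifiers named). All sample columns were used. A gene was tested if 5 or more mice reached 0.5 CPM, which left 17612, fitted in R 4.3.3 with edgeR 4.0.16 (TMM scaling, robust quasi-likelihood fit, 1 mean per age and sex). Age was compared as the average over the sexes, two-sided. Genes with FDR below 0.05 are called higher or lower, and those that pass glmTreat at 2-fold are called past 2-fold. Scripts were tested on simulated data.

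The genes named are the members, fixed pathway and marker lists, and the 6 genes, members apart, most like each class mean by Pearson r of log2 CPM (prior count 2) centred within groups. Members and lists were chosen with earlier results of these data known. Ratios were chosen after their values were seen and tested on log2 values by permutation of mice. The labels name no litter or batch, so p-values measure the spread between these mice. Replicates were separate mice, and none of 81 pairs within groups agreed within counting noise. Counting error is small beside that spread except for genes with few counts such as Ciita. Alternatives were another scaling, filter, tool, design and set of mice, including each mouse left out in turn. Some genes of these lists are not reported here by name.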

Additional observations from a re-analysis of the deposited data

Results flagged for a closer look

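Tap1 in 8-week male 4 stood apart from the other males of its age, at 110.61 CPM against 62.3 to 74.1 CPM in the other 5 mice (a gap of 0.756 of the whole range, n = 6). It was the only such value among 60 sets of one member in one age and sex. Chance alone sets apart about 5% of such sets. The same mouse had the highest summed class II, microglia, endothelial, monocyte, T and NK cell, dendritic cell, B cell and neutrophil levels at 8 weeks. It ranked 8 of 12 for the border-associated macrophage sum, and the part of these in the value was not tested.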

How the results depend on the processing

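The number of members past 2-fold from P15 to 8 weeks moved with the processing. It was 2 (H2-Aa and H2-Eb1) as reported, 1 (H2-Eb1) with limma-voom and 1 with DESeq2, 4 with P15 males 5 and 6 both left out, and 2 to 4 when each mouse was left out in turn. The cause was not tested. Over all settings the count was 4 to 5 from P6 to P15 and 5 to 7 from P6 to 8 weeks (the other pathway genes changed ranged from 53 to 61, 39 to 58 and 67 to 73 in the 3 comparisons), and the lowest member count from P6 to 8 weeks came from requiring 10 counts in every mouse, which removes Ciita. No log2 fold change of a member reversed where it had been called. Of the recomputed log2 fold changes, 1335 stayed on their side of the threshold and 12 lost their call, all for H2-D1 or B2m from P6 to P15: with library size scaling, with P15 males 5 and 6 left out (0.17, FDR = 0.155, and 0.25, FDR = 0.096), for H2-D1 with no filter (FDR = 0.058), and without single mice named above. Library size scaling moved the median of all genes to -0.14 (P15 against P6) and -0.10 (8 weeks against P6), and the share of calls that were higher from 49.1% to 39.4% and from 50.8% to 43.6%. Without both P15 males the class II sum fell against the microglia markers from P6 to P15 (log2 change -0.27, permutation, adjusted p = 0.0166). Cd74, which rose least of the class II members in that interval, is the largest part of that sum. Likeness ranked by Spearman rho kept 2 of 6 genes for class II and 1 of 6 for class I.

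With the replicate number as a replicate block, 5, 2 and 6 members were past 2-fold in the 3 comparisons, the counts found without it. Deviations of 80 same-numbered pairs across groups had correlations from -0.54 to 0.69 (median 0.033), and 27 were over 0.1. The labels do not say what mice of the same number share. These correlations cannot tell it, as pairs with different numbers were not set beside them.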
